A study of Mus musculus with 11 samples.

Results

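The peaks compared here were places of histone H3 lysine 4 trimethylation (H3K4me3) in wild type (WT) and Wdr5 knockout (KO) mouse embryoid bodies. They comprised all 9836 peaks of the WT list and all 918 peaks of the KO list on chromosomes 1 to 19, X and Y, 10754 of the 19707 peaks of all 11 lists of the series. A peak was shared where it overlapped a peak of the other genotype by at least 1 base. Of the WT peaks, 795 (8.08%, 95% interval 7.56 to 8.64) were shared with KO and 9041 were not. Of the KO peaks, 804 (87.6%, 85.3 to 89.6) were shared with WT and 114 were not. The places called in KO were thus nearly a subset of those called in WT.

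Embryoid bodies are aggregates of embryonic stem cells that begin to differentiate. Both genotypes had the same background, a stem cell line with a GFP reporter knocked into Rx (the eye field gene also called Rax), and were collected at day 2 of SFEBq, a serum-free aggregation method that directs cells to anterior neural tissue. The medium held 5% KSR, a serum replacement, doxycycline was withdrawn at day 0 in all groups, and 2% matrigel was added at day 1. CUT&RUN used 2 µg of antibody on 2 M cells: an antibody bound to chromatin directs a nuclease, and the released DNA is sequenced. Each genotype had 1 H3K4me3 library, with 34.2 M fragments in WT and 22.3 M in KO. Another H3K4me3 library, with 43.2 M fragments, came from cells lacking both Wdr5 and p53 (DKO). WDR5 and P53 antibodies were used in WT and DKO, and KO cells were profiled for H3K4me3 alone. How the alleles were deleted, and whether a genotype is 1 clone, is not given in the sources used here.

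H3K4me3 marks nucleosomes at the starts of active genes and of genes with CpG-rich promoters, mostly just downstream of the start. It is written by the MLL and SET1 methyltransferase complexes, whose catalytic subunits need the shared core of WDR5, RBBP5, ASH2L and DPY30 for full activity. In embryonic stem cells the complexes are known for upholding genes of self-renewal and growth.

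With 1 library per genotype no difference between genotypes could be tested, and all intervals are Wilson 95% intervals that cover counting error only. The KO library was shallower, and its pileup (the number of fragments over a peak's summit) is not scaled to depth. Scaled by the ratio of fragments, 0.651, the pileup of 7927 WT peaks (80.6%) reached 14, the lowest pileup in the KO list. Of these 7927, 9.65% (9.02 to 10.3) were shared with KO. That bound is a single KO peak, and reaching it does not show that a place could be called at the KO depth. The lower quartile of the pileup of shared KO peaks at gene starts, 19, was reached by 4470 scaled WT peaks (45.4%), of which 15.5% (14.4 to 16.5) were shared, a comparison added after seeing the data. With only the 918 WT peaks of highest fold enrichment, as many as in KO, 24.7% were shared, and with an overlap of at least 50% of both peaks, 4.06%. In bulk libraries, fewer cells with the mark at a place and less of it per cell cannot be told apart. Fold enrichment (pileup over the local background of the same library) was the authors' value for each peak and was used to rank peaks within a list. Its median was 4.42 in WT and 4.70 in KO. Values of the genotypes are set side by side without a test.

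The following promoters show both outcomes at strong WT peaks. The first 3 belong to genes with the highest KO fold enrichment among shared peaks at a gene start. Nemf encodes a factor that handles stalled ribosomes, Heatr1 a factor of ribosomal RNA synthesis and Hnrnpc a protein that coats nascent transcripts. The other 3 had the highest WT fold enrichment among peaks at a gene start without a KO peak: Babam1, a DNA damage response gene, Stk11ip, which encodes a partner of the kinase STK11, and Lsm5, a gene of the ring that binds U6 RNA. Each window runs 5′ to 3′ from 250 bases before to 50 bases after the RefSeq start (build GRCm38.p6, the assembly of mm10). Capitals mark matches, on either strand, to any of the 7 promoter motifs whose shares are given with the promoter counts. The windows are chr12:69357127-69357426 on the minus strand for Nemf, chr13:12395125-12395424 on the plus strand for Heatr1, and chr14:52103972-52104271 on the minus strand for Hnrnpc. They are chr8:71396605-71396904 on the plus strand for Babam1, chr1:75521279-75521578 on the plus strand for Stk11ip, and chr6:56704650-56704949 on the minus strand for Lsm5.
Nemf: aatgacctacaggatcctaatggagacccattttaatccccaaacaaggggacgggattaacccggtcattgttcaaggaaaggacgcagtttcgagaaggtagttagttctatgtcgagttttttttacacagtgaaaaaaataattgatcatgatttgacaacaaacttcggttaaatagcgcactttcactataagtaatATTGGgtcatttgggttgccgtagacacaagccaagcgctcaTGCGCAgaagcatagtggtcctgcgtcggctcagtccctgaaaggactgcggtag
Heatr1: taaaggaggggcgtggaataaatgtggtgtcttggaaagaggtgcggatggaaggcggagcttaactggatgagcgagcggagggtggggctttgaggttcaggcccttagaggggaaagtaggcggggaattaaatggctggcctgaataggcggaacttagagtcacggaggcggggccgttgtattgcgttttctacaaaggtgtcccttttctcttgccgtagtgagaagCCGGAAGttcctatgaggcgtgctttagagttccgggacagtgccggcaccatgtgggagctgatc
Hnrnpc: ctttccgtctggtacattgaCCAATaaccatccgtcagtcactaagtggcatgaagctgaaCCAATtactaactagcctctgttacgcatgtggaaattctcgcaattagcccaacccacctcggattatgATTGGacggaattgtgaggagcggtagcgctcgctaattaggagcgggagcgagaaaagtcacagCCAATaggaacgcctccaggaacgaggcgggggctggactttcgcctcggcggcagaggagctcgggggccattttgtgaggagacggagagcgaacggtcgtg
Babam1: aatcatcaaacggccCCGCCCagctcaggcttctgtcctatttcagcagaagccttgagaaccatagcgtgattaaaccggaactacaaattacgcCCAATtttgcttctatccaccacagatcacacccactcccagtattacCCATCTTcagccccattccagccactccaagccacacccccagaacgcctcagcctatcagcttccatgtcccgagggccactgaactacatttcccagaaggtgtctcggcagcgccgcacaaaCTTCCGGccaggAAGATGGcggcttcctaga
Stk11ip: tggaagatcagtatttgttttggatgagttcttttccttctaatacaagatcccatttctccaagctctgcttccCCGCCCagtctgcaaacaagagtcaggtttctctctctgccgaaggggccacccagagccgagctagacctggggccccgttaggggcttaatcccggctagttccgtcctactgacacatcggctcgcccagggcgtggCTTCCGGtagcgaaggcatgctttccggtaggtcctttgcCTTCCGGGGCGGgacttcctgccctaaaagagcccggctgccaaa
Lsm5: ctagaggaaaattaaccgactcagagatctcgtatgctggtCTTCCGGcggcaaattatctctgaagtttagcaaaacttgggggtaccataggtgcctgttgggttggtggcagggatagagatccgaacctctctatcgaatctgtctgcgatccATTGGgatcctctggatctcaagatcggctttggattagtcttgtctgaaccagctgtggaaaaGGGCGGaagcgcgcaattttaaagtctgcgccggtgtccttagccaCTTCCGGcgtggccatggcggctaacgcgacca
The Babam1 window held 5 matches, Stk11ip, Lsm5 and Hnrnpc 4 each, Nemf 2 and Heatr1 1. The CG dinucleotide occurred 13 times in Nemf, 16 in Heatr1 and 22 in Hnrnpc, and 12 times in Babam1, 15 in Stk11ip and 18 in Lsm5. The letters of these 6 windows therefore overlapped between the outcomes.

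The shared peaks were high and wide in WT. Ranked by WT pileup, 1.73% (1.08 to 2.75) of the lowest 10% of WT peaks were shared with KO, against 35.7% (32.7 to 38.7) of the top 10%. Ranked by WT width, the share was 1.32% in the lowest 10% and 26.7% in the top 10%. By WT fold enrichment it was 3.46% in the lowest 10%, 1.42% in the next 10% and 24.5% in the top 10%. At gene starts alone, 0 of the 690 peaks in the lowest 10% of pileup were shared, which allows a share of up to 0.554% (upper Wilson bound), and 282 of 851 (33.1%) in the top 10%. Height did not separate the classes fully: 633 of the 984 peaks in the top 10% of pileup (64.3%) had no KO peak. Of the 342 WT peaks in the top 10% of both pileup and width, 151 (44.2%, 39.0 to 49.5) were shared, and of the 356 in the lowest 10% of both, 6 were.

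**Figure D1:**
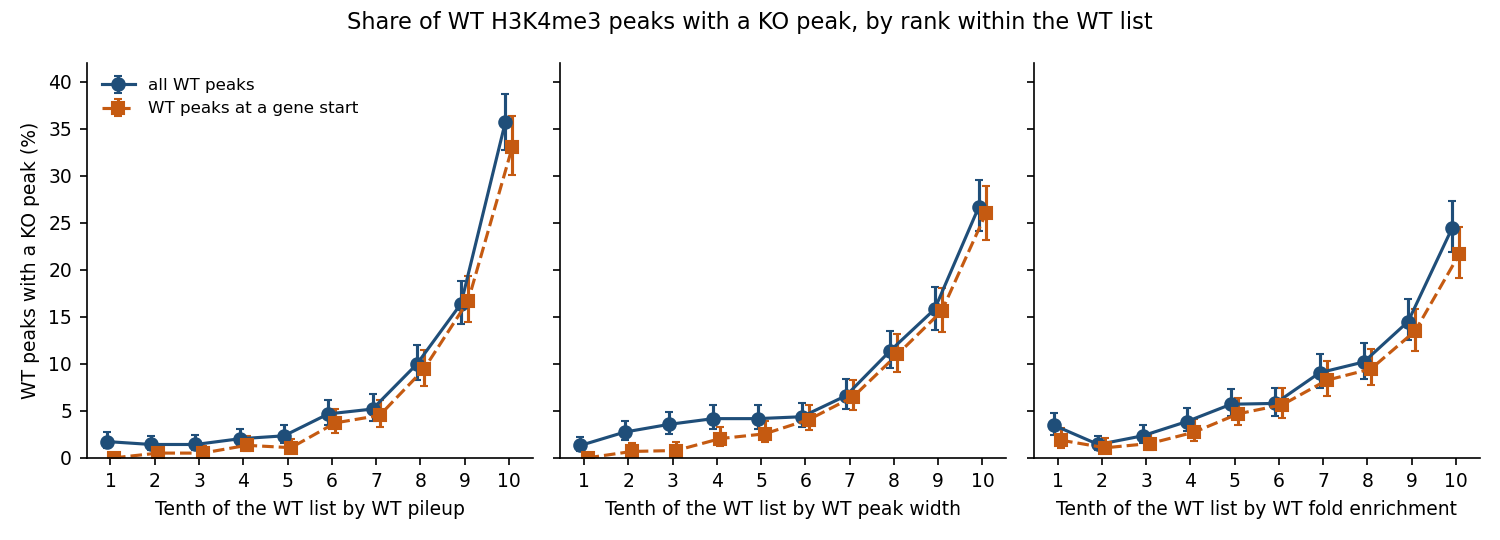
Share of WT H3K4me3 peaks that overlap a KO peak (y axis, percent) in 10 equal parts of the WT list (x axis, part 10 is the highest), ranked by WT pileup, WT peak width and WT fold enrichment; bars are Wilson 95% intervals, circles all WT peaks and squares WT peaks within 1 kb of a gene start. By pileup the share of all WT peaks runs from 1.73% in the lowest 10% to 35.7% in the top 10%.

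The median width of the 795 shared WT peaks was 863 bases (quartiles 606 and 1134), against 494 (347 and 731) for the WT peaks without KO, a ratio of 1.75. The same order held within 1 kb of a gene start (922 against 524 bases) and away from starts (448 against 380). As called, the shared places were narrow in KO: KO peaks with a WT partner had a median width of 393 bases. Called width can depend on depth, and the KO library was shallower. Whether the mark itself was narrower in KO was not tested. The WT peak was the longer in 719 of the 806 overlapping pairs (89.2%), and 615 KO peaks (76.5% of those shared) lay wholly inside a WT peak. A median of 50.2% of the WT peak was covered, and the summits lay a median of 90 bases apart (quartiles 29 and 214). Only 1 overlap was under 50 bases, at 35, so the threshold of 1 base decided few pairs.

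Among shared peaks at gene starts, Nemf, Heatr1 and Hnrnpc held the highest KO fold enrichment. Nemf had a KO peak at chr12:69356727-69357166 with a fold enrichment of 7.96 and a pileup of 35, inside a WT peak with 6.02 and 46. Heatr1 had 7.95 in KO and 10.4 in WT, with pileups of 32 and 68. Hnrnpc had 7.67 in KO and 6.34 in WT, with pileups of 36 and 46. As deposited, the KO pileup was below the pileup of the overlapping WT peak at 11 of the 12 highest shared starts. It was equal at Rpl9, where both were 43, though another WT peak within 1 kb of the Rpl9 start had 55. With WT scaled by the ratio of fragments, KO was instead above WT at 6 of the 12: Nemf (35 in KO against a scaled 30.0 in WT), Hnrnpc (36 against 30.0), Rpl9 (43 against 28.0), Snrpg (31 against 25.4), Vps13d (32 against 28.0) and Rps26 (41 against 34.5). The 12 were picked by KO fold enrichment, which favours a high KO value. The same count was not made over all shared starts. The pileups that follow are as deposited. Psmc6, an ATPase subunit of the proteasome, had a pileup of 36 in KO and 78 in WT, and Urm1, a ubiquitin-like protein gene that serves tRNA thiolation, had 30 and 67. Snrpg, a core protein of spliceosomal particles, had 31 and 39. Wdr75, a gene of small ribosomal subunit assembly, had 29 and 45, and Vps13d, a lipid transfer protein gene, 32 and 43. Rps26, a small subunit ribosomal protein gene, had the widest KO peak of the 12, 1074 bases within a WT peak of 1268 bases. At 3 of the 12 the peak lay within 1 kb of the starts of 2 genes, as at Rpl9 and Lias (lipoic acid synthesis), Polr2l (an RNA polymerase subunit) and Tspan4, and Fastkd5 (mitochondrial RNA processing) and Ubox5. All 12 were also called in the DKO H3K4me3 list, beside 88.1% of all shared KO peaks at starts.

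High WT peaks also lacked a KO peak at many starts, and Babam1 had the highest WT fold enrichment of this class at a start, 11.1 with a pileup of 100, at chr8:71396901-71397545. Stk11ip had 10.6 with a pileup of 73, Lsm5 10.5 with 57 and Dctn6, a dynactin subunit gene, 10.3 with 61. These were picked by WT fold enrichment; over all WT peaks at starts, its median was 5.51 for shared peaks and 4.43 for those without KO. Psmc4, like Psmc6 an ATPase subunit of the proteasome, had a WT fold enrichment of 9.14 over 457 bases and no KO peak, while Psmc6 had 9.74 over 1122 bases and was shared. The other 7 were Taco1 (mitochondrial translation), Dclre1b with Ap4b1, Lrp10, Emc7 (an endoplasmic reticulum membrane complex subunit), Arpc5 with Rgl1, Tmem39a and Akap8l, with WT fold enrichments between 9.13 and 9.68. Their 12 WT peaks were 453 to 944 bases wide, against 535 to 1425 bases at the 12 shared starts. Of these 12, picked for high WT fold enrichment, Emc7 alone was not called in DKO. Of all WT peaks without KO at starts, 48.0% were called in DKO.

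Width alone did not secure a KO peak. The widest WT peak at a gene start, 2488 bases at Nhlrc3 and Proser1, was shared, with a KO peak of 1008 bases and a pileup of 23 in KO against 46 in WT. The next 5 by width had no KO peak: Pde12 (2308 bases), Hk2, a hexokinase gene of glucose use (2297), Cachd1 (2203), Sall4, a zinc finger regulator of pluripotency (2190), and Trim8, a ubiquitin ligase gene (2185). Their WT fold enrichment was between 4.14 and 5.07, beside a median of 4.42 over all WT peaks. Their WT pileups were high, with 46 at Pde12, 50 at Hk2, 40 at Cachd1, 58 at Sall4 and 47 at Trim8. The median pileup of all WT peaks was 28. Cachd1 alone of the 6 was not called in DKO, where 49.2% of all WT peaks were called.

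Counted by gene, an H3K4me3 peak lay within 1 kb of the start of 8124 of 21887 protein-coding genes in WT and of 731 in KO. Of the 8124, 727 (8.95%, 8.35 to 9.59) were called in KO, and 4 genes were marked in KO alone. Their order followed WT height: in 5 equal parts from low to high WT pileup the share was 0.369%, 0.985%, 3.76%, 11.4% and 28.2%. The median of each gene's highest WT fold enrichment was 5.53 for genes called in both and 4.62 for genes called in WT alone.

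The lists of splicing, cytoplasmic ribosomal protein, translation factor, chaperone and proteasome genes had 30.8% to 45.2% of their marked members called in KO. Mitochondrial ribosomal protein genes had 16.9%, beside 8.95% of all marked genes. Splicing and RNA-binding protein genes had 19 of 42 (45.2%, 31.2 to 60.1), with Hnrnpc, Snrpg, Snrpe, Srsf5, Srsf3 and Prpf8 highest in KO. At Srsf3, a splicing regulator, the pileup was 41 in KO, 55 in WT and 48 in DKO. Proteasome subunit genes had 13 of 31 (41.9%), led by Psmc6, Psmd1, Psmd4 and Psmb5. At Psmd4, a ubiquitin receptor, it was 27 in KO, 63 in WT and 46 in DKO. Chaperone genes had 8 of 20 (40.0%), among them Cct6a, Cct5, Cct4, Cct3 and Tcp1 of the chaperonin ring, and Dnajb1, a heat shock co-chaperone gene, had a pileup of 35 in KO and 82 in WT. The median WT fold enrichment of these 3 lists was 4.69, 5.85 and 4.74, beside 4.70 over all marked genes, and their median WT widths were 797, 764 and 744 bases beside 594.

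**Figure D2:**
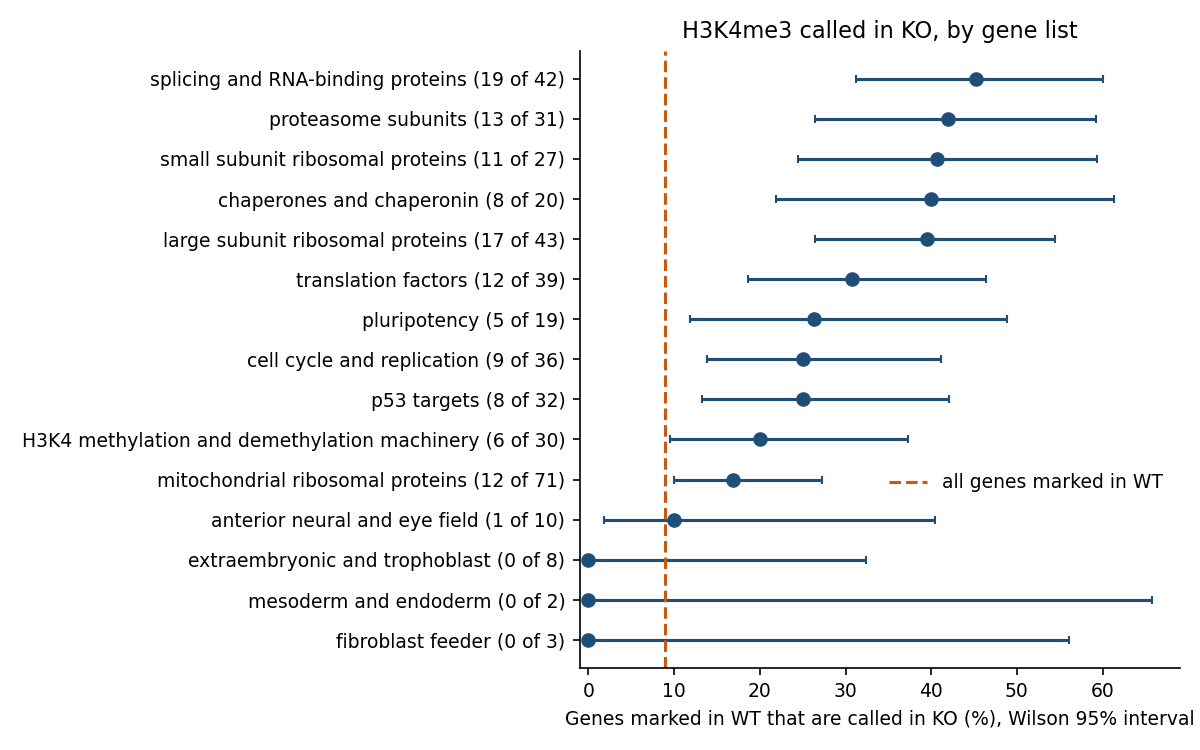
Share of the genes marked by H3K4me3 in WT that were called in KO (x axis, percent) for each of 15 gene lists (y axis, with the number called and the number marked); points are shares and bars Wilson 95% intervals, which cover counting error only. The dashed line is the share over all marked genes, 8.95%, and the highest share is 45.2% for splicing and RNA-binding protein genes.

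Beside 8.95% of all marked genes, 17 of 43 marked ribosomal protein genes of the large cytoplasmic subunit were called in KO (39.5%, 26.4 to 54.4). Of the small subunit genes, 11 of 27 were (40.7%, 24.5 to 59.3). The median WT fold enrichment of both lists, 4.30 and 4.56, lay below the 4.70 of all marked genes. Their median WT widths, 807 and 856 bases, lay above the 594, and their median WT pileups, 34.0 and 35.0, above the 30.0. Rpl11, which also binds MDM2 when ribosome assembly fails, had a fold enrichment of 6.72 in KO, 5.79 in WT and 4.80 in DKO. Rpl22, Rpl5, Rpl35a, Rps3a1, Rps3, Rps9 and Rps14 had KO fold enrichments between 4.46 and 5.49. Rpl29 and Rpl6 were marked in WT at 6.57 and 6.38 and had no KO peak. Mitochondrial ribosomal protein genes, whose median WT fold enrichment was higher at 5.28, had 12 of 71 (16.9%, 9.94 to 27.3) called in KO. Mrpl35 was the highest at 5.70 in KO, 10.1 in WT and 5.08 in DKO, followed by Mrpl28 at 5.55 and Mrpl12 at 5.37. The intervals of the mitochondrial list and the cytoplasmic large subunit list overlapped.

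Translation factor genes had 12 of 39 marked members called in KO (30.8%, 18.6 to 46.4), beside 8.95% of all marked genes. Eef1b2, an exchange factor of elongation, had a fold enrichment of 5.51 in KO and 4.86 in WT, Eif4h had 5.17 and 4.81, Eif2b3 had 4.59 and 5.96, Eef2 had 4.48 and 3.28, and Eif2s3x had 4.35 and 6.47. Cell cycle and replication genes had 9 of 36 (25%, 13.8 to 41.1), beside the same 8.95%. The mitotic cyclin gene Ccnb1 had 6.52 in KO and 6.09 in WT, its kinase Cdk1 had 6.41 and 5.47, Cdk4 5.84 and 7.02, Pcna 5.16 and 5.45, Mcm7 5.05 and 5.17, and Top2a 5.03 and 6.19. All of these genes were called in both lists, so each value had to pass the caller's cutoff. The pileups of Cdk4 were 28 in KO and 68 in WT. The median WT pileup was 35.0 for translation factor genes and 34.5 for cell cycle genes, beside 30.0 over all marked genes.

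High WT peaks were more frequent in some lists, so the lists were also counted within the top 20% of marked genes by WT pileup, where 458 of 1625 genes (28.2%) were called in KO. Splicing and RNA-binding protein genes and proteasome genes each had 11 of 17 there. Large subunit ribosomal protein genes had 7 of 9, small subunit genes 4 of 6, mitochondrial ribosomal protein genes 10 of 26, translation factors 5 of 12, chaperones 5 of 8, cell cycle genes 7 of 14, p53 target genes 4 of 8 and pluripotency genes 3 of 7. The H3K4 methylation and demethylation machinery had 4 of 14, near the share of all genes of that height. Anterior neural and eye field genes had 0 of 2, mesoderm and endoderm genes 0 of 1, and the extraembryonic and feeder lists had no member there. The numbers are small, and some members share a peak, such as Psma2 and Mrpl32.

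Of the genes of the H3K4 methylation and demethylation machinery, 6 of 30 marked members were called in KO (interval 9.51% to 37.3%), beside 8.95% of all marked genes and, in the top 20% by WT pileup, 4 of 14 beside 28.2%. Wdr5 itself had peaks in all 3 H3K4me3 lists, with pileups of 73 (WT), 21 (KO) and 53 (DKO). A mark at the start of Wdr5 does not check the knockout, since the deleted part is not given in the sources used here. The other core members had no KO peak: Rbbp5 had a WT pileup of 51 over 1493 bases, Dpy30 50 over 1429 bases and Ash2l 21 over 242 bases, and all 3 were called in DKO. The other 5 called in KO were Hcfc1, a host cell factor subunit of the SET1 complexes (fold enrichment 5.31 in KO and 4.93 in WT), Kdm5a, an H3K4 demethylase (5.13 and 5.04), Ing1, a reader of H3K4me3 (4.69 and 4.61), Kdm1a, a demethylase of lower methylation states (4.29 and 6.10), and Kmt2d, a methyltransferase of enhancers (3.71 and 5.29). Kmt2d apart, the genes of catalytic subunits (Kmt2a, Kmt2b, Kmt2c, Setd1a and Setd1b) had no KO peak, and all were marked in WT and DKO. With 8.95% of all marked genes called in KO, so few genes cannot show a lower share. Of the 30 marked members of the list, 24 were called in DKO, beside 59.7% of all genes marked in WT. Ing2, a paralogue of Ing1, had the highest pileup of the list in WT, 90, and 105 in DKO, and no KO peak.

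Of the p53 target genes, 8 of 32 marked members were called in KO (25%, 13.3 to 42.1), beside 8.95% of all marked genes. Cdkn1a, the gene of the cyclin-dependent kinase inhibitor p21, had a fold enrichment of 6.11 and a pileup of 32 in KO, against 3.75 and 29 in WT, and no peak in DKO. Mdm2, the ubiquitin ligase gene that restrains P53, had a pileup of 33 in KO, 30 in WT and 26 in DKO. At both genes the KO pileup was not below that of WT although the KO library was shallower. Their KO peaks were narrower as called (591 against 1259 bases and 735 against 948). At the 6 others called in KO (Apaf1, Phlda3, Sesn2, Polk, Gtse1 and Ccng1) the pileup was 17 to 32 in KO and 28 to 75 in WT. Phlda3 came near equal, with 25 in KO and 28 in WT, as did Srsf5 outside this list (27 and 29). Bbc3 and Bax, pro-apoptotic genes, had pileups of 49 and 27 in WT and no KO peak. Of the 32, 15 were called in DKO, beside 59.7% of all genes marked in WT. Whether these differences exceed the spread between libraries was not tested.

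WT peaks marked 19 of 30 pluripotency genes, beside 8124 of 21887 protein-coding genes in all. KO peaks marked 5 of the 19 (26.3%, 11.8 to 48.8), beside 8.95% of all genes marked in WT. Pou5f1, which encodes OCT4, had pileups of 61 (WT), 32 (KO) and 57 (DKO), and Tet1, a DNA demethylation enzyme gene, had 72, 30 and 42. Sox2 had 54 in WT, 35 in KO and no DKO peak, Utf1 had 37, 28 and 35, and Pou3f1, a factor of the epiblast, had 33, 26 and 21. Sall4, Dnmt3b, Lin28a, Klf4 and Otx2 were among the 14 marked in WT without a KO peak. Of 36 anterior neural and eye field genes 10 were marked in WT, beside the same 8124 of 21887 in all. Of these 10, 1 was called in KO (interval 1.79% to 40.4%), beside 8.95% of all marked genes, so no lower share is shown. It was Zic2, with a fold enrichment of 6.01 and a pileup of 33, against 3.32 and 40 in WT. Rax, the reporter's gene, had no WT or KO peak within 1 kb of its start. In the lists for other cell types, beside 8124 of 21887, WT peaks marked 2 of 30 mesoderm and endoderm genes (Eomes and Nodal). WT peaks also marked 8 of 25 extraembryonic and trophoblast genes and 3 of 21 fibroblast feeder genes. None of the marked genes of these lists was called in KO, beside 8.95% of all marked genes. So few marked members allow shares of up to 65.8%, 32.4% and 56.1% (upper Wilson bounds), all above 8.95%. Their median WT pileups were 35.5, 23.5 and 20, beside 30 for all marked genes.

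Within gene starts, the summits of shared peaks lay farther downstream. For the 474 shared WT peaks whose summit lay within 1 kb of a RefSeq start, the median summit was 347 bases downstream of the nearest start (quartiles 208 and 551), and 92.0% (89.2 to 94.1) lay downstream. For the 6197 WT peaks without KO the median was 279 bases (108 and 473), and 80.5% (79.5 to 81.5) lay downstream. A summit more than 50 bases upstream occurred in 7.59% and 18.6% of them. The KO summits at shared starts had a median of 338 bases and 91.9% downstream. The 372 WDR5 summits of WT list 1 at such starts had a median of -126 bases, upstream of the start, and 42.5% downstream.

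**Figure D3:**
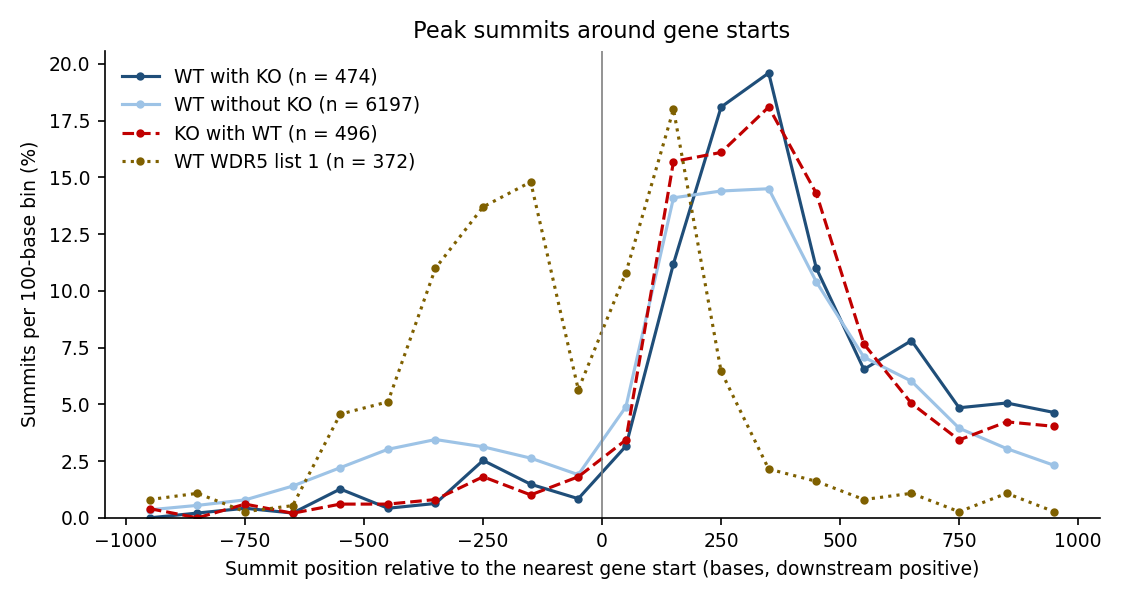
Position of peak summits relative to the gene start (x axis, bases, downstream positive) as the percent of summits per 100-base bin (y axis) for WT H3K4me3 peaks with and without a KO peak, KO peaks with a WT peak and peaks of WT WDR5 list 1. The median is 347 bases for WT peaks with KO, 279 for WT peaks without KO and -126 for WDR5. The WDR5 summits lie on both sides of the start, with the fullest bin centred 150 bases downstream.

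WT WDR5 list 1 held 725 peaks, which limits the share of the 9836 WT H3K4me3 peaks that it could overlap. This list overlapped 28 of the 611 shared WT peaks at starts (4.58%, 3.19 to 6.54) and 212 of the 7666 without KO (2.77%, 2.42 to 3.16). A DKO list of WDR5 or P53, made in cells labelled as lacking both proteins, overlapped 2.29% and 0.913% of the same peaks, beside 1.97% of all WT peaks. The DKO H3K4me3 list held 563 of the 611 (92.1%, 89.7 to 94.0) and 3678 of the 7666 (48.0%, 46.9 to 49.1), beside 49.2% of all WT peaks.

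The promoter windows were searched for 7 short motifs on both strands. A RefSeq window was found for 697 of the 727 genes called in both lists and 7117 of the 7397 called in WT alone, and 21263 windows were searched in all. Matches of different motifs may overlap, as in the Stk11ip window. The core bound by YY1 (AAGATGG) was in 13.8% (11.4 to 16.5) of promoters called in both, 7.70% (7.10 to 8.34) of those called in WT alone and 6.24% of all. Without ribosomal protein genes the shares were 13.4% and 7.67%, and in the top 20% by WT pileup they were 14% (11.2 to 17.5) and 10.2% (8.63 to 12), whose intervals overlap. A motif bound by NRF1 (TGCGCA) was in 19.5% (16.7 to 22.6) of promoters called in both, 15.8% (15 to 16.7) of those in WT alone and 9.74% of all. The TATA box (TATAAA) was in 7.32% (5.61 to 9.49), 5.09% (4.60 to 5.62) and 12.6%. The TATA intervals overlapped, and those of the NRF1 motif met at 16.7. In the top 20% by WT pileup the NRF1 motif was in 19.7% (16.3 to 23.5) of promoters called in both and 17.6% (15.5 to 19.8) of those in WT alone, and the TATA box in 7.34% (5.30 to 10.1) and 4.57% (3.54 to 5.89), so both overlapped. The other 4 motifs had overlapping intervals over all marked genes. They included the GC box that Sp1 binds (GGGCGG) with 70.0%, 70.9% and 46.2% of all promoters. The core of ETS factors (CCGGAAG) had 23.4%, 21.9% and 11.6%, and in the top 20% by WT pileup the order turned, with 21.4% in both and 25.3% in WT alone. The E-box (CACGTG) had 10.2%, 10.5% and 7.84%. The last was the CCAAT box (CCAAT itself) with 40.3%, 38.6% and 38.2%. The median number of CG dinucleotides per window was 25 for genes called in both, 23 for WT alone and 13 over all promoters. A match is a run of letters and not a binding site.

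Away from gene starts, the shared peaks were often called with other antibodies too. Of the shared WT peaks, 184 (23.1%) had no start within 1 kb, and 1375 of those without KO (15.2%). Of the 184, 87 (47.3%, 40.2 to 54.5) overlapped a peak of a WDR5 or P53 list, against 39 of the 611 shared at a start (6.38%), 65 of the 1375 without KO away from starts (4.73%) and 4.39% of all WT peaks. A DKO list of WDR5 or P53 overlapped 74 of the 184 (40.2%, 33.4 to 47.4), so many of these places were called with antibodies whose targets the cells are labelled to lack. The share at a gene start was 76.9% for WT peaks with KO and 84.8% for those without, a difference of -7.94 percentage points. Without the peaks that a DKO list of WDR5 or P53 overlapped, a comparison added after seeing the data, the shares were 84.6% and 85.0%, a difference of -0.444 points (-3.39 to 2.15).

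**Figure D4:**
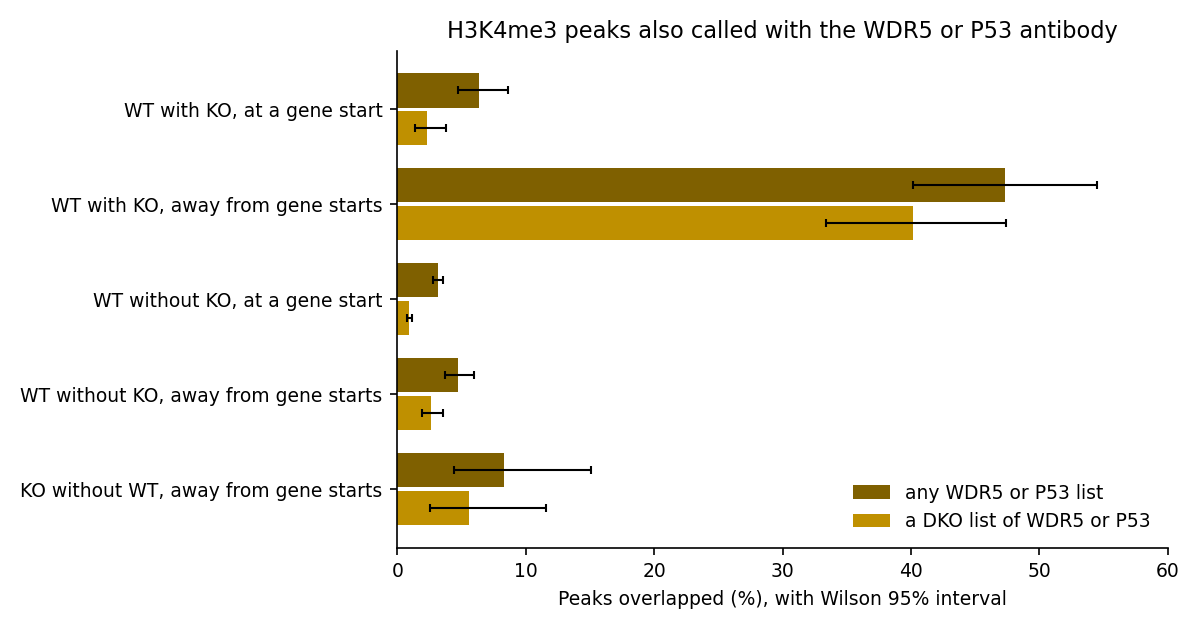
Share of H3K4me3 peaks (x axis, percent) overlapped by a peak of any WDR5 or P53 list (dark bars) or of a DKO list of WDR5 or P53 (light bars), for 5 classes of WT and KO peaks (y axis); lines are Wilson 95% intervals. WT peaks with KO away from gene starts stand at 47.3% and 40.2%, and the other 4 classes below 10%.

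The highest of these places had extreme values in both genotypes. At chr2:98666300-98667325 the pileup was 18301 in KO and 20622 in WT, 2348 kb from the nearest gene start. At chr9:35305229-35305577 it was 2100 and 2546, with fold enrichments of 25.4 and 29.9. A peak inside Lars2, a mitochondrial leucyl-tRNA synthetase gene, at chr9:123461846-123462161 had a pileup of 66 in KO and 123 in WT, and 1 inside Aida, 1.86 kb from its start, had 110 and 182. All 4 were also in a WDR5 or P53 list and in the DKO H3K4me3 list. Other shared places had a higher pileup in KO than in WT, such as 49 against 35 at chr4:80231343-80231855, 49 against 34 at chr5:91928200-91928760, and 46 against 23 inside Thsd7b at chr1:129397379-129397951. Among the 50 highest KO peaks by fold enrichment, 38 were shared peaks away from starts, 8 were KO peaks without WT and 4 were shared peaks at a start, and 30 of the 50 overlapped a WDR5 or P53 list, beside 14.5% of all KO peaks.

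The 114 KO peaks without WT were narrow and mostly far from gene starts. Their median width was 321 bases (quartiles 282 and 401), where the shortest length the caller gave in KO was 261, and their median pileup was 21, beside 23 for shared KO peaks. Gene starts lay within 1 kb of 6 of them (5.26%, 2.43 to 11), against 612 of the 804 shared KO peaks (76.1%, 73.1 to 78.9). Their median distance to a start was 41.2 kb, and 38 (33.3%) lay inside a gene's span. The nearest WT peak was a median of 155 kb away, and 2 of the 114 lay within 500 bases of a WT peak, the closest at 70 bases. Another list held 15 of them (13.2%, 8.14 to 20.6): 10 were in the DKO H3K4me3 list and 9 in a WDR5 or P53 list. The share depended on what counted as without WT: it was 28.8% in the 50% of each list with the highest fold enrichment and 29.9% where sharing needed an overlap of 50% of both peaks.

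**Figure D5:**
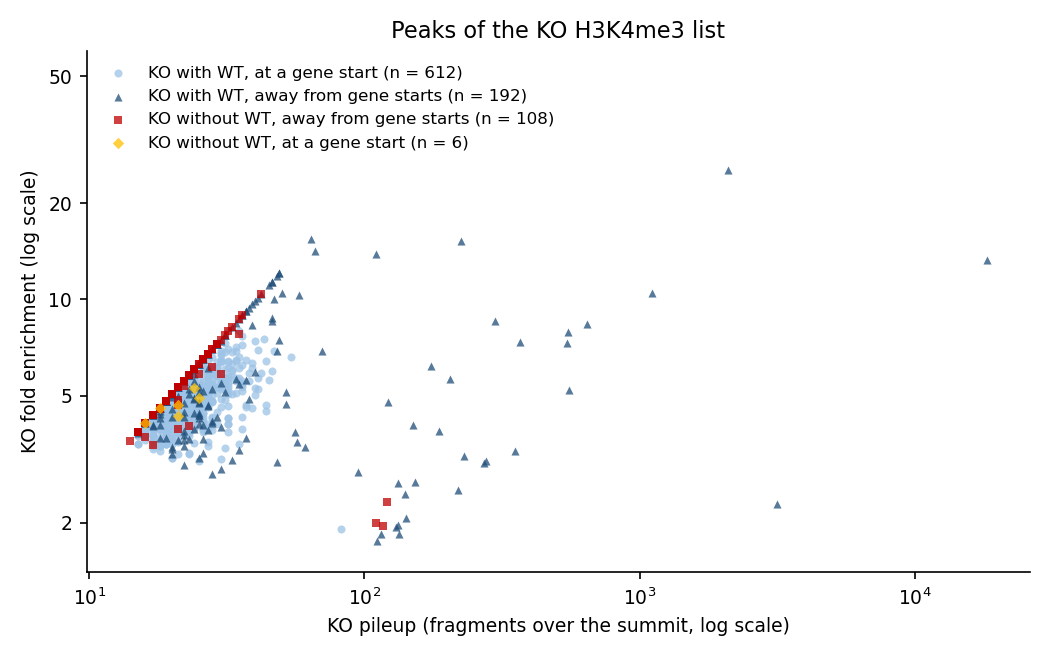
KO fold enrichment (y axis, log scale) against KO pileup (x axis, fragments over the summit, log scale) of each of the 918 KO peaks, 1 point per peak, by class and position. KO peaks without WT line the upper left edge, where the background is at its lowest value, and the highest of them has a fold enrichment of 10.4 at a pileup of 42.

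The background behind a fold enrichment, the pileup plus 1 divided by the fold, was within 1% of the lowest value in the KO list (4.14) at 96 of the 114 (84.2%). It was so at 62 of the 612 shared KO peaks at starts (10.1%) and 74 of the 192 shared KO peaks away from starts (38.5%). The highest, at chr5:27987068-27987382, had a fold enrichment of 10.4 with a pileup of 42 and lay 84.0 kb from a start. The next was inside Rasef at chr4:73755197-73755618 with 8.94 and 36, and another was inside Arhgap24 with 7.80 and 35. Another gene span among the 12 highest was that of A830018L16Rik (7.25 and 29), and the other 9 lay outside protein-coding genes. Of the 12, the peak at chr4:83370722-83371211 alone was in another list. At the other end, 3 of the 114 had pileups of 110, 117 and 121 with fold enrichments of 2.00, 1.95 and 2.32.

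The 6 KO peaks without WT at gene starts had KO pileups of 16 to 25. They lay at Eif4a1, an RNA helicase gene of translation initiation (fold enrichment 4.33), Ptch1, the hedgehog receptor gene (4.92), Tardbp, which encodes the RNA-binding protein TDP-43 (5.28), Mlec (4.11), Ppan, a ribosome assembly gene (4.69), and Cib2 (4.59). Ptch1, Tardbp and Mlec also had a separate WT peak within 1 kb of the start, with WT fold enrichments of 4.24, 4.16 and 4.25. The Ptch1, Tardbp and Ppan peaks overlapped a DKO H3K4me3 peak. These values lay within the range of the KO peaks without WT elsewhere.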

How the data were processed

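The data were 11 deposited peak lists from CUT&RUN, and the WT and KO H3K4me3 lists were compared. Per the file headers, the authors called both with MACS 2.1.0.20150731 in paired-end mode. No control library was used, the q cutoff was 0.01, the regional background spanned 10 kb and at most 2 duplicates were kept. Build mm10 and the tools HOMER 4.10, SAMtools 1.5, Bowtie2 and bedtools are listed, without roles, per the submitters' processing notes. The deposited pileup is a coverage signal not scaled to depth, and the deposited fold enrichment is a ratio to local background. Of the deposited −log10 p and −log10 q, the −log10 q was used for 1 filter. Without a control or spike-in, the number called depends on depth (22.3 M fragments in KO, 34.2 M in WT) and on each library's background. MACS wrote no peak shorter than the fragment size, 217 bases in WT and 261 in KO.

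Peaks on the mitochondrial genome (3 in WT, 4 in KO) were left out. Gene starts came from RefSeq for 17492 of 21887 protein-coding genes, and the other 4395 were placed by both ends of their span. Peaks, genes, list members and motifs were counted with Python 3.11.15, numpy 2.4.6, pandas 2.3.3 and scipy 1.17.1. The interval code was tested on simulated data. The 15 gene lists held 553 entries, all matched. Named items were the 12 highest of each class by fold enrichment, the 6 widest WT peaks, up to 6 called members per list, and the methylation machinery. Other members named, the KO peaks at starts and the shared peaks away from starts, were chosen after their values were seen. The members and lists were chosen with earlier results of these data known. Lists numbered 2 for WDR5 and P53 come from merged alignments and were not taken as replicates. Alternatives were other list cutoffs, depth scaling, overlap rules, a 5 kb window and leaving out places called without the target.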

Additional observations from a re-analysis of the deposited data

How the results depend on the processing

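No paired analysis was possible because each of the 2 groups compared has 1 library, and for the same reason no replicate could be left out. The direction of the difference at gene starts and the order of the widths were the same under every alternative run. Keeping the 50% of peaks with the highest fold enrichment in either list, 6.93% of WT peaks and 6.12% of marked genes were called in KO, the difference at gene starts was -16.3 points, the width ratio 1.31, and 28.8% of KO peaks without WT were in another list. With lists of equal length these were 24.7%, 23.3%, -13.5 points, 1.24 and 70.7%, with 687 KO peaks without WT, by construction since 918 WT peaks were kept. With a −log10 q of at least 5 the first 4 were 6.72%, 6.59%, -13.2 points and 1.5. For WT peaks that reach the lowest KO pileup after depth scaling the shares were 9.65% and 10.5%, and the width ratio 1.55. For those that reach the lower quartile of shared KO peaks at starts, added after seeing the data, they were 15.5%, 16% and 1.35, 217 KO peaks had no WT partner, and 32.3% of these were in another list. With an overlap of at least 50% of both peaks, 4.06% of WT peaks were shared, 519 KO peaks had no WT partner, the difference was -20.6 points, the ratio 1.29, and 29.9% of those KO peaks were in another list. Counting peaks within 500 bases as shared gave 8.89%. Without the peaks that a DKO list of WDR5 or P53 overlapped, added after seeing the data, the share was 7.32% and the difference -0.444 points, with an interval that spans 0. Of 50 alternative values, 19 moved by less than their counting interval or 1.5 times. Beyond the construction named, the cause of each shift was not tested. Depth limits what a missing KO peak shows: 1909 WT peaks, once scaled, lie under the lowest KO pileup.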

Other observations

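By chromosome, the share of WT peaks with a KO peak ranged from 5.76% on chromosome 15 (22 of 382) to 11.5% on chromosome 8 (70 of 607), leaving out the Y chromosome. On the Y chromosome 5 of 11 WT peaks (45.5%, 21.3 to 72.0) were shared. Chromosome 8 also held 16 of the 114 KO peaks without WT, followed by chromosomes 1 and 4 with 12 each.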
